A study of Arabidopsis thaliana with 4 samples.

Results

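The genes described here are 5 calmodulin-like and EF-hand calcium genes of Arabidopsis thaliana: CML23 (AT1G66400), CML41 (AT3G50770), CML42 (AT4G20780), AT3G25600 and AT4G27280. They were chosen by name, as the probe sets that the array's annotation assigns to each of these genes alone, and each has 1 probe set, among 13350 genes that have a probe set of their own. Expression was measured on Affymetrix GeneChip arrays in 2 samples of lwd1lwd2 double mutants and 2 samples of wild-type plants, described as biological replicates. Both LWD1 and LWD2 encode WD-repeat proteins that work in the circadian clock, and the series asks how their joint loss alters transcript levels in plants whose response to day length is under study. All plants grew for 31 days in cycles of 12 h of light and 12 h of dark. Their above-ground parts were collected between 5 and 9 h after lights-on. The labels name neither the mutant alleles nor the accession, and do not say how many plants made up a sample.

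Calmodulin and its relatives are small proteins that bind calcium ions in EF-hand loops, change shape and then bind other proteins. In this way they pass on the brief rises of cytosolic calcium that follow touch, cold, wounding, pathogens and hormones. Calmodulin-like (CML) proteins form a large plant family with no catalytic activity of their own, and transcripts of many of them are themselves induced within minutes of a stimulus. CML23, with its close paralog CML24, is known to act in nitric oxide accumulation and flowering time. CML41 acts at plasmodesmata in the response to bacterial flagellin, and CML42 in trichome branching and in defence against insects. AT3G25600 and AT4G27280 are EF-hand genes that carry only their locus names in the annotation used here.

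In the double mutant, AT4G27280 was the 1 gene of the 5 that passed the test, at nearly 5 times the wild-type level (4.84-fold). CML23 and AT3G25600 stood about 2-fold above wild type on average (2.04-fold and 2.32-fold), without passing, and their mutant arrays lay far apart. CML42 was slightly higher on both mutant arrays, and CML41 overlapped between the genotypes. The test was limma's moderated test on log2(signal + 16), over the 13647 probe sets left after the 40% with the lowest mean signal were removed, with an adjusted p under 0.05 counted as passing. Of all tested probe sets 5.57% passed, made up of 2.73% that were higher and 2.84% that were lower in the mutant. The mutant arrays lay wholly above the wild-type arrays for 4 of the 5 genes, against 28.9% of all tested probe sets. The genes were chosen with earlier results of these data known, so these counts are a description of the 5 and not evidence about calcium genes at large.

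**Figure D1:**
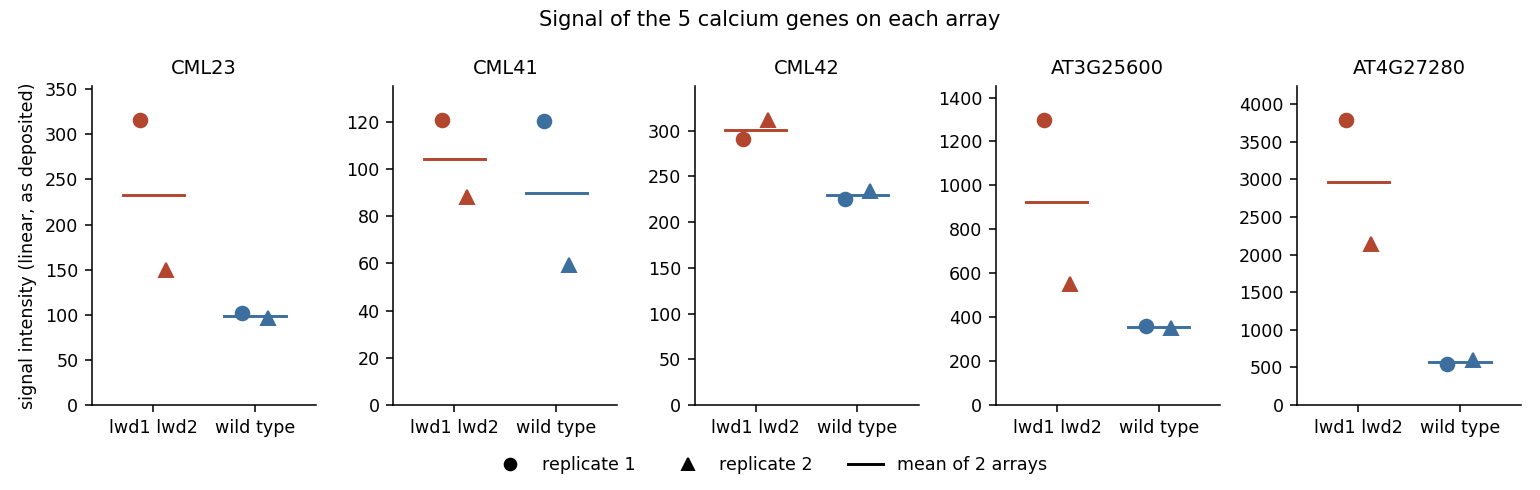
Signal intensity (linear, as deposited, vertical axes from 0) of the 5 calcium genes in lwd1 lwd2 plants (left of each panel) and wild-type plants (right); circles are replicate 1, triangles replicate 2 and lines the mean of 2 arrays. For CML23, AT3G25600 and AT4G27280 mutant replicate 1 stands well above mutant replicate 2, while the wild-type arrays nearly coincide; for CML41 the genotypes overlap.

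AT4G27280 had signals of 3787 and 2135 on the mutant arrays, against 548 and 602 on the wild-type arrays. Both mutant samples were far above both wild-type samples, and the mutant samples differed from each other by more than the wild-type samples did. The mean signal was 2961 ± 1168 in lwd1lwd2 plants and 575 ± 38.2 in wild-type plants (SD, n = 2 each). On the log2 scale the gene rose by 2.28 ± 0.25 (SE; limma, adjusted p = 0.000576), with a 95% confidence interval of 1.72 to 2.83. Only 0.234% of tested probe sets had a larger positive difference. Taken one at a time, mutant replicate 1 had 6.59 times the mean wild-type signal and mutant replicate 2 had 3.71 times. The call held in every alternative processing that was run, including the loss of either mutant array (difference of 1.87 without replicate 1 and 2.69 without replicate 2).

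AT3G25600 had signals of 1297 and 552 on the mutant arrays, against 361 and 351 on the wild-type arrays. Replicate 1 of the mutant was the only high sample, and replicate 2 lay between it and wild type, nearer to wild type. The mean signal was 925 ± 527 in lwd1lwd2 plants and 356 ± 6.99 in wild-type plants (SD, n = 2 each). The log2 difference was 1.22 ± 0.32 (SE), with a 95% confidence interval of 0.50 to 1.93, and the gene just missed the threshold (limma, adjusted p = 0.0551). The difference was 0.61 when mutant replicate 1 was left out and 1.82 when mutant replicate 2 was left out. Each of these fits had a lone mutant array and could not measure the spread between mutant samples. With all 4 arrays kept, the gene crossed the threshold when the lowest 60% of probe sets were left out (limma, adjusted p = 0.0439). The size of its difference thus depends on single arrays, and its side of the threshold on the processing.

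CML23 showed the same arrangement of samples, with signals of 316 and 149.8 in the mutant against 102 and 96.5 in wild type. Here too mutant replicate 1 was the high sample, at 3.19 times the mean wild-type signal, while mutant replicate 2 was at 1.51 times. Mean signals were 233 ± 117 in lwd1lwd2 plants and 99.1 ± 3.62 in wild-type plants (SD, n = 2 each). The log2 difference was 1.03 ± 0.33 (SE), with an interval of 0.30 to 1.75, and did not pass (limma, adjusted p = 0.104). Leaving out mutant replicate 1 gave 0.53, and leaving out mutant replicate 2 gave 1.53. Each of these values rests on a lone mutant array, so the spread between mutant samples could not be measured. The mean wild-type signal of CML23 lay close to the signal of about 91.5 at which the filter on dim probe sets cuts.

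CML42 had signals of 291 and 312 in the mutant, against 225 and 233 in wild type. All 4 samples were close, the mutant pair stood above the wild-type pair, and this was the only one of the 5 genes whose mutant replicate 2 exceeded replicate 1. Mean signals were 301 ± 14.6 in lwd1lwd2 plants and 229 ± 6.14 in wild-type plants (SD, n = 2 each), a 1.29-fold difference on the log scale. The log2 difference was 0.37 ± 0.21 (SE; limma, adjusted p = 0.367), and its interval of −0.10 to 0.84 reaches from a slight decrease to a 1.79-fold increase. CML42 is known from trichomes, and of 9 trichome genes listed for comparison only TRY, an inhibitor of trichome formation, was named on the array. TRY fell, with signals of 63.5 and 82.8 in lwd1lwd2 plants and 295 and 217 in wild-type plants (log2 difference −1.60 ± 0.27, adjusted p = 0.00713). In above-ground tissue, fewer cells of a type and less RNA per cell cannot be told apart, and the part of trichome number in the CML42 values was not tested.

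CML41 had signals of 121 and 88.1 in the mutant and 120.5 and 59.3 in wild type. Replicate 1 was the higher sample in both genotypes, and the genotypes overlapped. Mean signals were 104 ± 23.1 in lwd1lwd2 plants and 89.9 ± 43.3 in wild-type plants (SD, n = 2 each). The log2 difference was 0.24 ± 0.35 (SE; limma, adjusted p = 0.758), with a wide interval of −0.53 to 1.00 whose upper bound is a 2.00-fold increase. Its mean on the log2 scale, 6.78, was barely above the filter's 6.75. Without wild-type replicate 2 its difference was −0.19, so no direction can be given.

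**Figure D2:**
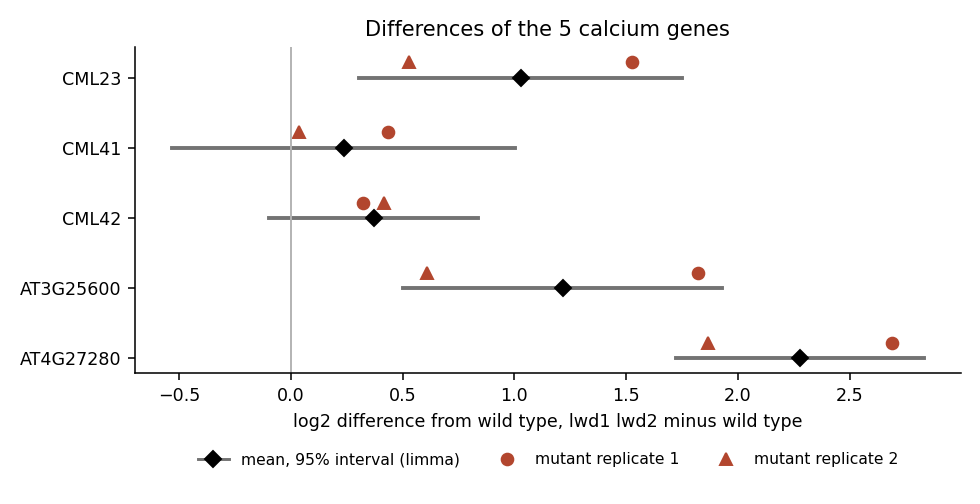
Log2 difference from wild type (horizontal axis) for each of the 5 genes; diamonds and bars give the mean and 95% interval from limma, and the circle and triangle above each bar are mutant replicates 1 and 2, each minus the mean of the wild-type arrays. The interval of AT4G27280 (1.72 to 2.83) lies farthest from 0, and those of CML41 and CML42 include 0.

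The mutant samples were therefore kept apart in a second description. Relative to the wild-type mean, mutant replicate 1 stood at 2.69, 1.82 and 1.53 on the log2 scale for AT4G27280, AT3G25600 and CML23, and mutant replicate 2 at 1.87, 0.61 and 0.53. The gaps between the mutant arrays were 0.82 for AT4G27280, 1.21 for AT3G25600 and 1.00 for CML23. Gaps at least as wide were found in 3.21%, 0.960% and 1.67% of all tested probe sets, in that order of genes. In wild type the same 3 genes were among the steadier ones: 68.6%, 90.5% and 84.1% of tested probe sets had a gap at least as wide as theirs. CML41 had the reverse arrangement, with a gap of 0.39 between mutant arrays and 0.86 between wild-type arrays, the second matched or exceeded by 2.81% of tested probe sets. CML42 varied little in either genotype (gaps of −0.09 in the mutant and −0.05 in wild type, replicate 1 minus replicate 2). The median gap of the 5 genes, without sign, was 0.82 in the mutant and 0.06 in wild type, against 0.21 and 0.22 over all tested probe sets. Mutant replicate 1 exceeded replicate 2 in 4 of the 5 genes and in 49.0% of all tested probe sets.

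**Figure D3:**
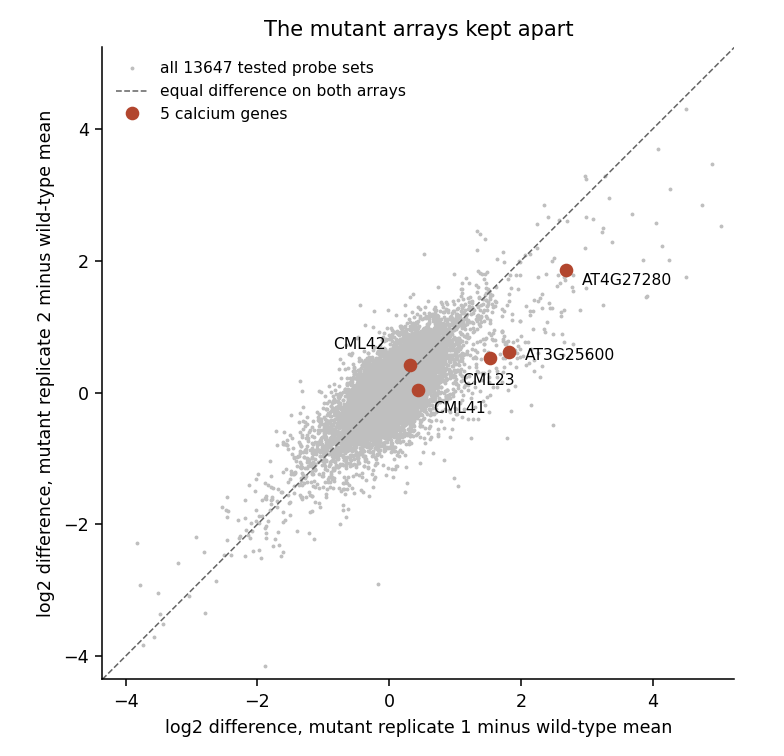
Log2 difference of mutant replicate 1 (horizontal) and of mutant replicate 2 (vertical) from the wild-type mean for all 13647 tested probe sets (grey) and the 5 calcium genes (red); the dashed line marks equal differences. AT3G25600 and CML23 lie well to the right of the line at 1.82 and 1.53 against 0.61 and 0.53, AT4G27280 is high on both axes, and CML42 lies close to the line.

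Some measures of the samples also differed between the mutant arrays. The 2 named markers of green leaf tissue out of 18 listed, the Rubisco activase gene RCA and the light-harvesting gene LHCB4.1, had summed signals of 41299 and 52251 in mutant replicates 1 and 2, against 55160 and 55920 in wild type. RCA and LHCB4.1 did not pass the test (adjusted p = 0.340 and 0.560). In 1 pair of actin control probe sets, the 3′ and 5′ ends of the transcript differed on the log2 scale by 4.24 and 2.85 in the mutant. The wild-type values of that pair were 3.94 and 3.19. Another actin pair differed far less, by 1.18 and 0.988 in the mutant and by 1.26 and 0.909 in wild type. Replicate 1 was the higher in both genotypes for each of these actin pairs. Over all 6 such pairs of control probe sets, for actin, GAPDH and ubiquitin, the difference was larger in mutant replicate 1 than in mutant replicate 2 in 3 pairs and smaller in 3. Of the markers of other tissues, the 1 named root marker of 10, EXPA7, had signals from 4.095 to 41.5 over the 4 arrays, and the 4 named anther and pollen markers of 11 had summed signals of 216 and 302 in the mutant and 190.0 and 127 in wild type. Of these 4, AGL65 was the 1 that passed the filter, with signals of 126 and 205 in the mutant and 81.1 and 99.9 in wild type. Its log2 difference was 0.74 ± 0.30 (SE, limma, adjusted p = 0.193). The AGL65 signals do not overlap, with the mutant higher, as for 28.9% of all tested probe sets. AGL104, AGL66 and AMS were below the filter, and their signals overlapped between the genotypes. No flower or seed marker of the lists was named on the array. The part of leaf content, anther or pollen content or RNA quality in these results was not tested. All samples also came from the same window of the day, so a shift in the daily timing of a transcript and a change in its level cannot be told apart.

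No other named calcium gene that was tested passed. Calcium genes were gathered in 9 lists with 350 entries, from calmodulins through kinases to channels. Only 34 were named on the array, among them CML23, CML41 and CML42, and 21 were tested. AT3G25600 and AT4G27280, which carry only locus names here, matched no list entry by symbol or synonym. A listed name of either gene could have been missed, and the counts below leave both out. None of the 21 passed (0 by limma's adjusted p), against 5.57% of all tested probe sets. Among so few genes, 0 is close to that share and is no result about calcium genes. Of the 18 other than CML23, CML41 and CML42, 1 had an unadjusted p under 0.05, against 19.9% of all tested probe sets. Those 18 were split evenly, with 9 positive differences and a median of −0.003, against a median of 0.046 and 55.1% positive over all tested probe sets. The mutant lay wholly above wild type for 3 of them and wholly below for 4, against 28.9% and 22.6% of all tested probe sets. For 5 of the lists no probe set was matched by name, and they were not analysed here. These were calmodulins, other small EF-hand and calcium-binding proteins, and calcineurin B-like proteins with their kinases. Calcium-dependent protein kinases and the touch genes TCH2, TCH3 and TCH4 were the others.

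By role, the calcium channels, pumps and exchangers had 6 tested members, with a median of −0.10. None passed, against 5.57% of all tested probe sets, and 6 are too few to show a difference from that share. The glutamate receptor-like channel gene GLR3.6, known for its part in calcium waves after wounding, had the largest difference (0.42 ± 0.27, SE; adjusted p = 0.420). GLR1.4 stood at 0.34 ± 0.29 (adjusted p = 0.555). Among 9 tested calmodulin-binding proteins, all of the IQD family, the median was 0.01. IQD23 stood at −0.50 ± 0.20 (adjusted p = 0.201) and IQD32 at 0.36 ± 0.22 (adjusted p = 0.390). The thylakoid calcium sensor CaS had a difference of −0.27 ± 0.18 (adjusted p = 0.446), and the calreticulin CRT1b of the endoplasmic reticulum one of −0.01 ± 0.18 (adjusted p = 0.985). Of the genes matched by name to the calmodulin-like list, CML30 was the 1 tested besides CML23, CML41 and CML42. Its signals of 203 and 229 in the mutant and 191 and 211 in wild type overlapped (limma, adjusted p = 0.855).

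CML38, a calmodulin-like gene induced by wounding and low oxygen, fell just under the filter, with a mean of 6.72 on the log2 scale against 6.75. It is named here after its values were seen. Its signals were 1012 and 130.0 in the mutant, against 27.4 and 2.81 in wild type. Both mutant samples were above both wild-type samples, and the mutant samples differed 7.79-fold from each other. When all probe sets were tested, the log2 difference was 3.76 ± 0.88 (SE; limma, adjusted p = 0.124). The difference was 2.55 with an offset of 64 in place of 16, 4.37 without wild-type replicate 1 and 3.16 without wild-type replicate 2. In these 3 settings its mean cleared the filter, but only through the mutant arrays where it is high, so its passing there is no support for a difference. The size of the difference rests on wild-type signals far under the filter's cutoff, which may be background, since no detection calls were used. Its neighbour on the chromosome, AT1G76640 (CML39 among its synonyms), had signals of 2.43 and 2.22 in the mutant and 6.21 and 1.80 in wild type, and the genotypes overlapped. CML37 stood at 45.3 and 4.36 in the mutant and 17.0 and 1.36 in wild type, all below the filter's cutoff, with replicate 1 higher in both genotypes.

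**Figure D4:**
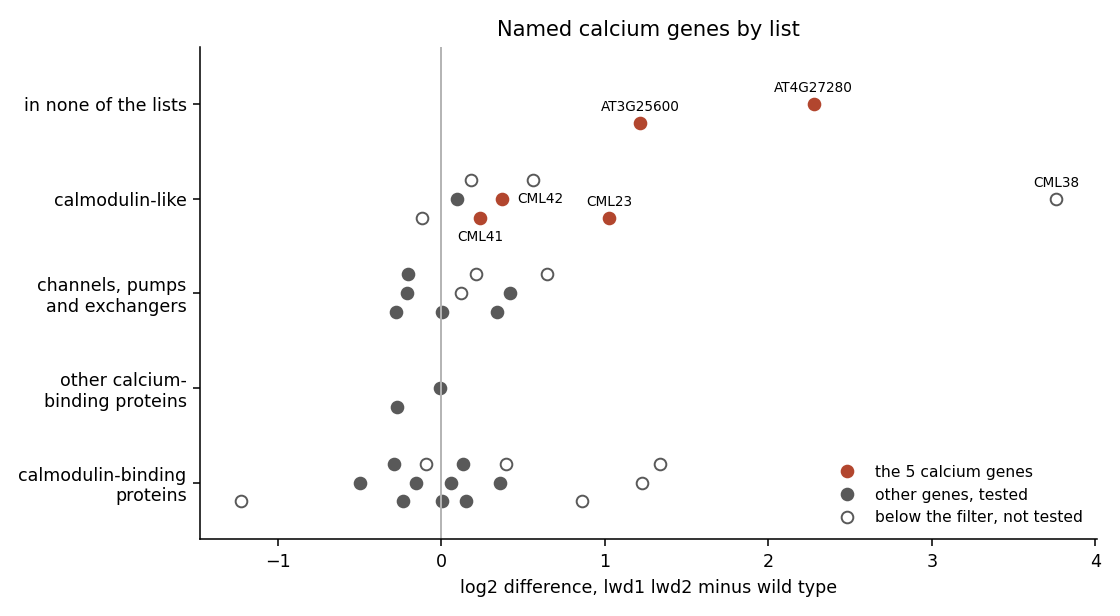
Log2 difference, lwd1 lwd2 minus wild type (horizontal axis), for all named calcium genes by list, with the 5 calcium genes in red, other tested genes in grey and genes below the filter as open circles. AT4G27280 (2.28) and the untested CML38 (3.76) stand apart, while the tested genes of the other lists lie between −0.50 and 0.42.

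The genes most like each of the 5 were found among 7368 other tested probe sets with 1 gene. Likeness was the Euclidean distance between the log2 values over the 4 arrays, each gene centred on its own mean. The 3 nearest to AT4G27280 were AT2G38465 (distance 0.122), AT3G16670 (0.358) and AT3G59350 (0.451). Their log2 differences were 2.20, 2.00 and 2.08, which follows from their choice by likeness and is given with no test. AT2G38465 had signals of 602 and 315 in the mutant, against 74.0 and 90.8 in wild type, which is the order of arrays seen for AT4G27280. AT3G25600 was closest to AT1G18740, AT4G24380 and AT1G72900 (distances 0.161, 0.176 and 0.209). CML23 was closest to AT1G11960, AT1G49840 and NET4B (0.068, 0.104 and 0.186). Like the genes they were matched to, these 6 were highest in mutant replicate 1, as the choice by likeness requires. CML23 and AT3G25600 were each the eighth nearest to the other (rank 8, distance 0.240), so these 2 of the 5 genes had nearly the same profile. For AT4G27280 the next of the 5 was AT3G25600, at rank 49. CML42 was closest to AT5G58210, AT2G35040 and CYTC6A, a cytochrome of the chloroplast (0.0184, 0.0252 and 0.0300), and CML41 to AT5G12220, AT2G39960 and AT1G28070 (0.0740, 0.0954 and 0.115). With 4 arrays many genes share a profile, and the distances are given as a description.

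With 2 samples of each genotype, an exact permutation test of a single gene cannot go below a two-sided p of 0.333, so the calls above rest on limma's sharing of the spread across probe sets. The plot of all processing alternatives shows where each gene stood.

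**Figure D5:**
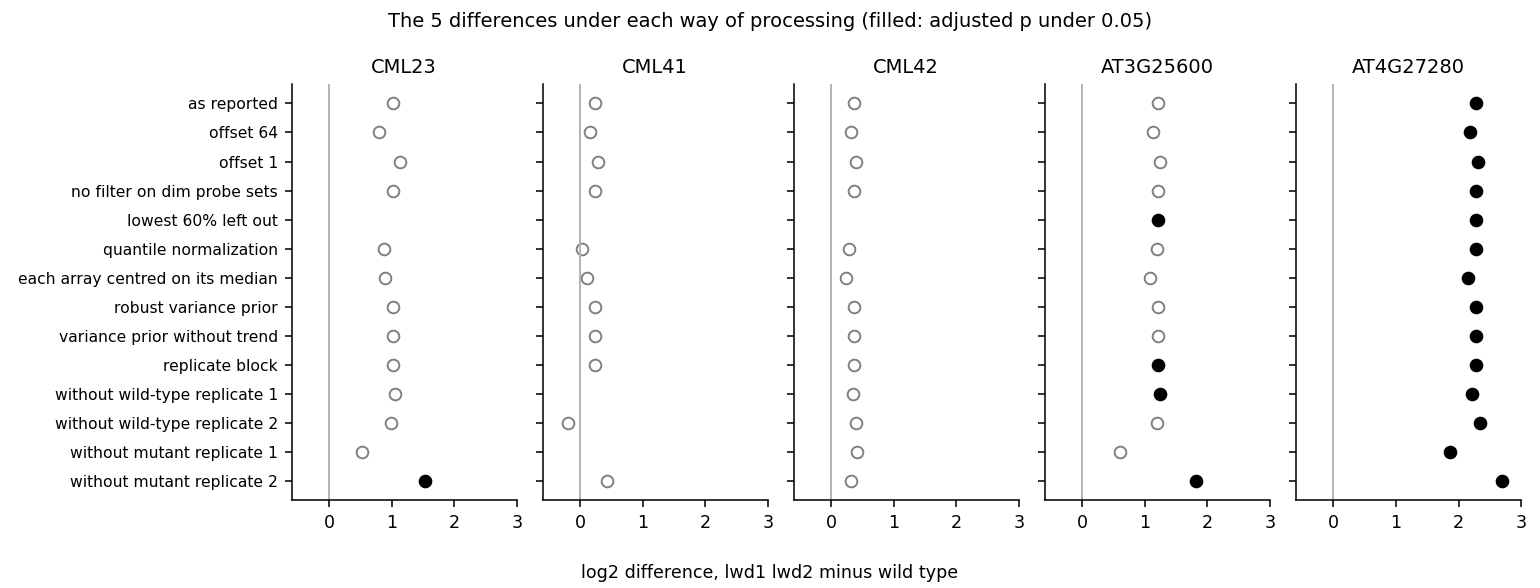
Log2 difference, lwd1 lwd2 minus wild type (horizontal axis), of each of the 5 genes as reported and under each alternative processing (rows); filled points have an adjusted p under 0.05, and a missing point means that the gene fell below the filter. AT4G27280 is filled in every row (1.87 to 2.69), AT3G25600 in some (0.61 to 1.82), CML23 only without mutant replicate 2 (1.53), and CML41 and CML42 in none. Rows with 1 array left out have a lone array in that genotype, whose spread was not measured.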

How the data were processed

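The deposited table holds 1 linear signal intensity, made by the authors with software not given in the sources used here, for each of 22810 probe sets on 4 arrays. The mean intensity after trimming 2% of probe sets at each end was 500.05 on every array of the deposited table, so the arrays had been scaled to each other, which cannot show a change in total mRNA. Per the labels' protocols, biotin-labelled RNA was made from total RNA by in vitro transcription.

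From these values log2(intensity + 16) was computed. The offset shrinks fold changes of dim genes. The 64 control probe sets and the lowest 40% by mean over the 4 arrays were left out. Differences (mutant minus wild type) were tested on the other 13647 with limma 3.58.1 in R 4.3.3 (lmFit, eBayes with an intensity trend, genotype only, 2 residual degrees of freedom, two-sided, Benjamini-Hochberg over all tested probe sets). All 5 genes passed the filter. The correlation between arrays was 0.972 within each genotype and 0.932 to 0.947 across genotypes. With values as deposited 372 probe sets were higher and 388 lower; after centring each array on its median, which moved all differences by −0.13, 257 were higher and 572 lower. On simulated data with 13647 probe sets, 88% of 100 changes of 1 on the log2 scale and 100% of 100 changes of 2 were recovered, with 6 false calls. The simulated noise was normal, independent between probe sets, and had the same spread for all probe sets of like mean signal. These rates therefore need not hold for genes with a wide gap between arrays, such as CML23 and AT3G25600.

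Gene names came from the array annotation, updated through the TAIR10.1 gene table (13513 probe sets with 1 gene, 503 with several, 8730 unnamed). LWD1 and LWD2 are unnamed, so the labels were not checked against them. CP1 was dropped from the calcium lists because the gene of that symbol is a protease. The 5 genes, the lists and the naming rule (the 5 genes, the 3 nearest profiles of each, and up to 4 genes per list that passed or otherwise 2 by size) were chosen with earlier results of these data known. Promoter and protein comparisons were not run. Figures were drawn with matplotlib 3.10.9. The number of arrays limits the precision.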

Additional observations from a re-analysis of the deposited data

How the results depend on the processing

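AT4G27280 kept its call in every alternative with all 4 arrays (limma, adjusted p = 0.000345 to 0.0167). Its log2 difference ran from 1.87 to 2.69 over all 13 alternatives. CML42 never passed in 12 (0.24 to 0.42). With all 4 arrays kept, AT3G25600 passed only in 2 settings. These were the lowest 60% left out (1.22, limma, adjusted p = 0.0439) and the replicate number as a block (1.22, adjusted p = 0.0489). In the others with 4 arrays its adjusted p reached 0.203, without the filter. Its difference ran from 0.61 to 1.82 when 1 array was left out. CML23 ran from 0.53 to 1.53 when 1 array was left out, passing only without mutant replicate 2. CML41 ran from −0.19 to 0.43 in the 2 such fits that tested it, turning negative without wild-type replicate 2. When 1 array was left out, the lone array of its genotype was assumed to vary like the others, and such a fit says little about genes with a wide gap between mutant arrays. Without the filter 258 probe sets passed in place of 760, and the cause was not tested; leaving out 1 array gave 561 to 1095. Of the listed calcium genes, 1 (CML38) passed with an offset of 64 and 0 to 1 when 1 array was left out (CML38 without either wild-type array, CML23 without mutant replicate 2), against 0 otherwise. CML38 was tested there only through its high mutant arrays. With the replicate block 676 probe sets passed. The numbers are not stated to pair the samples, and same-numbered arrays' deviations correlated at 0.0935; the block changed no other of these calls. With the lowest 60% left out, CML23, CML41 and CML42 were not tested.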

Other observations

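The chromosomal neighbours of the 5 calcium genes were looked at as well, taking the 2 nearest protein-coding genes on each side. A named probe set existed for 11 of these 20 neighbours. The filter left 6 of them for the test, and 0 passed (limma, adjusted p), against 5.57% of all tested probe sets. With only 6 genes, 0 is close to that share and is no result about the neighbours. Beside AT4G27280, AT4G27270 had signals of 268 and 179 in lwd1lwd2 plants and 274 and 229 in wild-type plants, which overlap (adjusted p = 0.746). The next gene on that side, WES1, which encodes an enzyme that joins auxin to amino acids, had signals of 198 and 215 in lwd1lwd2 plants and 141 and 78.7 in wild-type plants (log2 difference 0.87 ± 0.29, SE, adjusted p = 0.120). AT4G27300, on the other side, stood at −0.49 ± 0.22 (adjusted p = 0.245). CML23 lies next to the calmodulin gene CAM4, which was not analysed here.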
